A study of Homo sapiens with 9 samples.

Results

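The genes described here are VGF and 8 genes that act with it in regulated peptide secretion, namely the secretogranins SCG2, SCG3 and SCG5, the chromogranins CHGA and CHGB, the proprotein convertases PCSK1 and PCSK2, and the carboxypeptidase CPE. All 9 members were found by symbol among the 48162 genes of the count table, and 5 of them (VGF, SCG2, SCG5, CHGA and PCSK2) were among the 15776 genes with enough counts to be tested. VGF was chosen by its measured rise in shp16/shATR over shp16 cells. Its values are therefore given as a description, without a test, in every comparison.

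RNA sequencing was performed on 9 libraries of SKMEL28, a human melanoma cell line, with 3 libraries per group. Control cells carried an shRNA against GFP (shCont), a second group an shRNA against p16, the cell cycle inhibitor encoded by CDKN2A (shp16), and the third group shRNAs against both p16 and the DNA damage kinase ATR (shp16/shATR). All cells were grown in DMEM with serum, transduced with lentivirus and selected with puromycin. For protein blots shp16 cells received the GFP hairpin as the control for shATR, but whether the sequenced shp16 cells did is not stated in the sources used here. The 3 libraries of each group are described as technical replicates of 1 experiment, so the p-values below measure only the spread between these libraries. The study asked what the suppression of ATR does in cells with low p16.

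VGF and the granins are acidic proteins that are sorted into dense core vesicles, the storage organelles of endocrine cells and neurons, and are released when the cell is stimulated. Inside the vesicle the convertases PCSK1 and PCSK2 cut such precursors at pairs of basic residues, CPE trims the basic residues left at the cut ends, and SCG5 (also called 7B2) is the chaperone that PCSK2 needs to become active. The VGF promoter is known for a cAMP response element (CRE), the binding site of CREB family factors, through which nerve growth factor and neuronal activity induce the gene.

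The VGF promoter is shown because VGF is the member that was chosen by its measured rise in shp16/shATR over shp16 cells. The window below holds 250 bases before and 50 after the annotated start in RefSeq on GRCh38.p14, at chr7:101165520-101165819 on the minus strand, printed 5′ to 3′ with the CRE letters TGACGTCA in capitals.
VGF promoter: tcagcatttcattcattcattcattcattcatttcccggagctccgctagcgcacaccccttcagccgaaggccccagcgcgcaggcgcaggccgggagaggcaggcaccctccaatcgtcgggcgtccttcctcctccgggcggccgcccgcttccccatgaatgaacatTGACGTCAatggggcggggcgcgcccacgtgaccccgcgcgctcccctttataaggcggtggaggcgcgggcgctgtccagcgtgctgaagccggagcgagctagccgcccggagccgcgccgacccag
The first base of the CRE lay at position -79 and the first base of a TATAA motif at -30 relative to the start. Of the 9 members 7 had a window in the table (SCG2 and CHGB did not), and the full CRE, searched on both strands, was found in 3 of them. Among all 35116 windows of this length, 1.85% held TGACGTCA, 24.6% held its core TGACG on either strand, and 14.8% held TATAA on the sense strand. TGACG was counted also where it is part of TGACGTCA.

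The 60 bases around the motif are given for the 3 members with the full CRE to show its flanks, with the capitals again marking TGACGTCA.
VGF, chr7:101165615-101165674, minus strand: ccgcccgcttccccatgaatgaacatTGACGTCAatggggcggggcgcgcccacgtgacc
CHGA, chr14:92923070-92923129, plus strand: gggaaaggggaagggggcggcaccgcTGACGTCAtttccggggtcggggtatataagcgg
PCSK1, chr5:96433292-96433351, minus strand: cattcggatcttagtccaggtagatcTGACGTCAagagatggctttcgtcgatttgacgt
The motif began at -54 in CHGA and at -77 in the first of 2 windows of PCSK1. The windows of SCG3, SCG5, PCSK2 and CPE held the core TGACG without the full motif. CHGA and PCSK1 had too few counts for their levels to be set against that of VGF in detail, as described below.

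The targeted genes were examined first. ATR was at 83.4 to 93.5 CPM (counts scaled to a common library size, with TMM factors) in shp16 cells and at 39.9 to 41.0 CPM in shp16/shATR cells, a log2 fold change of -1.12 (SE 0.22, adjusted p = 0.0128, edgeR quasi-likelihood test with Benjamini-Hochberg adjustment over all genes tested, as for every adjusted p below). This call was lost without shp16 1 or without any 1 of the shp16/shATR libraries (adjusted p 0.0554 to 0.0707), with the fold change at -1.07 to -1.13. ATR in shCont cells ranged from 45.9 to 96.4 CPM. CDKN2A was at 103 to 162 CPM in shCont and at 78.1 to 99.9 CPM in shp16 cells, and this difference did not pass the test (log2 fold change -0.48, SE 0.16, adjusted p = 0.0723). In shp16/shATR cells CDKN2A was at 82.4 to 90.0 CPM and was called lower than in shCont cells (-0.57, SE 0.16, adjusted p = 0.0263). The latter call was lost in 5 of 19 alternatives. Library totals ran from 17314662 to 23588174 counts. Libraries shCont 1 and shp16 1 stood apart from the other libraries of their groups, and the values without them are given where they matter. The median log2 fold change of all genes tested was -0.016 in shp16 over shCont, 0.0021 on addition of shATR to shp16, and -0.018 between the double knockdown and shCont.

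All 8 melanocyte lineage markers (MITF, SOX10, PMEL, MLANA, TYR, TYRP1, DCT and S100B) were expressed, with a summed level of 13386 to 15002 CPM in shCont, 7769 to 13015 in shp16 and 10941 to 13044 in shp16/shATR cells. The defining markers of a melanoma line were thus present in every group. PMEL was the largest part of the summed level. In shp16 1, the library with the lowest sum, PMEL was at 3258 CPM, against 7839 and 7763 CPM in shp16 2 and 3. PMEL was not called in shp16 against shCont (-0.52, adjusted p = 0.225). Of 12 neuroendocrine and neuronal markers, DLK1 and TH had no count in any library, which allows up to 0.127 to 0.173 CPM per library if a count of 0 can stand for 3, for counting error only. INSM1, a transcription factor of neuroendocrine cells, had 0 to 3 counts per library. Of the less specific markers, SYP was at 2.49 to 8.84 CPM and ENO2 at 131 to 228 CPM. The summed level of the 12 markers, most of it ENO2, was 142 to 159 CPM in shCont, 147 to 178 with shp16 alone and 199 to 238 in shp16/shATR cells, and its part in the level of VGF was not tested. Of the 4 neuroendocrine markers tested, SYP was lower in shp16 than in shCont cells, TUBB3 higher in shp16/shATR than in shp16 cells, and SYP lower and ENO2 higher in shp16/shATR than in shCont cells. VGF was therefore measured in cells in which several defining transcripts of neuroendocrine cells were at or near 0.

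VGF (ENSG00000128564, chromosome 7, 100805790 to 100808874, minus strand, GRCh37), a secreted precursor that is cut into several bioactive peptides, was by far the most abundant member. It was at 498, 299 and 316 CPM in the shCont libraries 1 to 3. It was at 163, 175 and 173 CPM in the shp16 libraries 1 to 3. It was at 605, 596 and 573 CPM in the shp16/shATR libraries a to c. The 3 groups did not overlap, with every shp16 library below every shCont library and every shp16/shATR library above both. The widest spread was among the shCont libraries, where library 1 was the highest.

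Group means of VGF were 371 ± 110 CPM in shCont, 170 ± 6.14 with shp16 alone and 592 ± 16.2 in shp16/shATR cells (SD, n = 3). VGF was 2.18-fold lower in shp16 than in shCont cells (log2 fold change -1.12, SE 0.17), 3.48-fold higher in shp16/shATR than in shp16 cells (1.80, SE 0.17), and 1.60-fold higher in shp16/shATR than in shCont cells (0.67, SE 0.17). The VGF level in shp16/shATR cells therefore lay above the control level as well as above that of shp16 cells. Without library shCont 1 the difference between shp16 and shCont was smaller, at -0.86 on the log2 scale, and that between shp16/shATR and shCont larger, at 0.94. The value for shp16/shATR against shp16 stayed between 1.76 and 1.84 under every alternative setting that was run. VGF was picked by this value, so refits of the same libraries lend it no support.

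Levels of different genes were compared in FPKM, which takes gene length into account. VGF was at 143 ± 36.6 FPKM in shCont, 66.0 ± 5.64 with shp16 alone and 230 ± 9.42 in shp16/shATR cells (SD, n = 3). Among all genes in a library it ranked between positions 303 and 429 in shCont, between 871 and 1004 in shp16 and between 165 and 185 in shp16/shATR cells. VGF transcripts were thus among the abundant messages of this melanoma line in all 3 groups.

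Of the summed FPKM of the 9 members, VGF made up 80.4 to 87.7% in shCont, 77.9 to 81.3% in shp16 and 92.0 to 93.0% in shp16/shATR libraries. SCG2 and PCSK2 came next, with overlapping levels in each group (13.5 ± 1.63 and 12.5 ± 0.237 FPKM in shCont). SCG5 and CHGA followed at 0.807 ± 0.395 and 0.459 ± 0.176 FPKM in shCont, again overlapping. SCG3 was at 0.113 ± 0.0342 FPKM in shCont, above the remaining members there, and in the other groups it overlapped PCSK1 and CPE but not CHGB. PCSK1, CHGB and CPE were lowest and could not be ordered. Transcripts of the members were thus mostly those of VGF, whose FPKM was 7.35 to 29.8 times that of SCG2 in the same library.

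**Figure D1:**
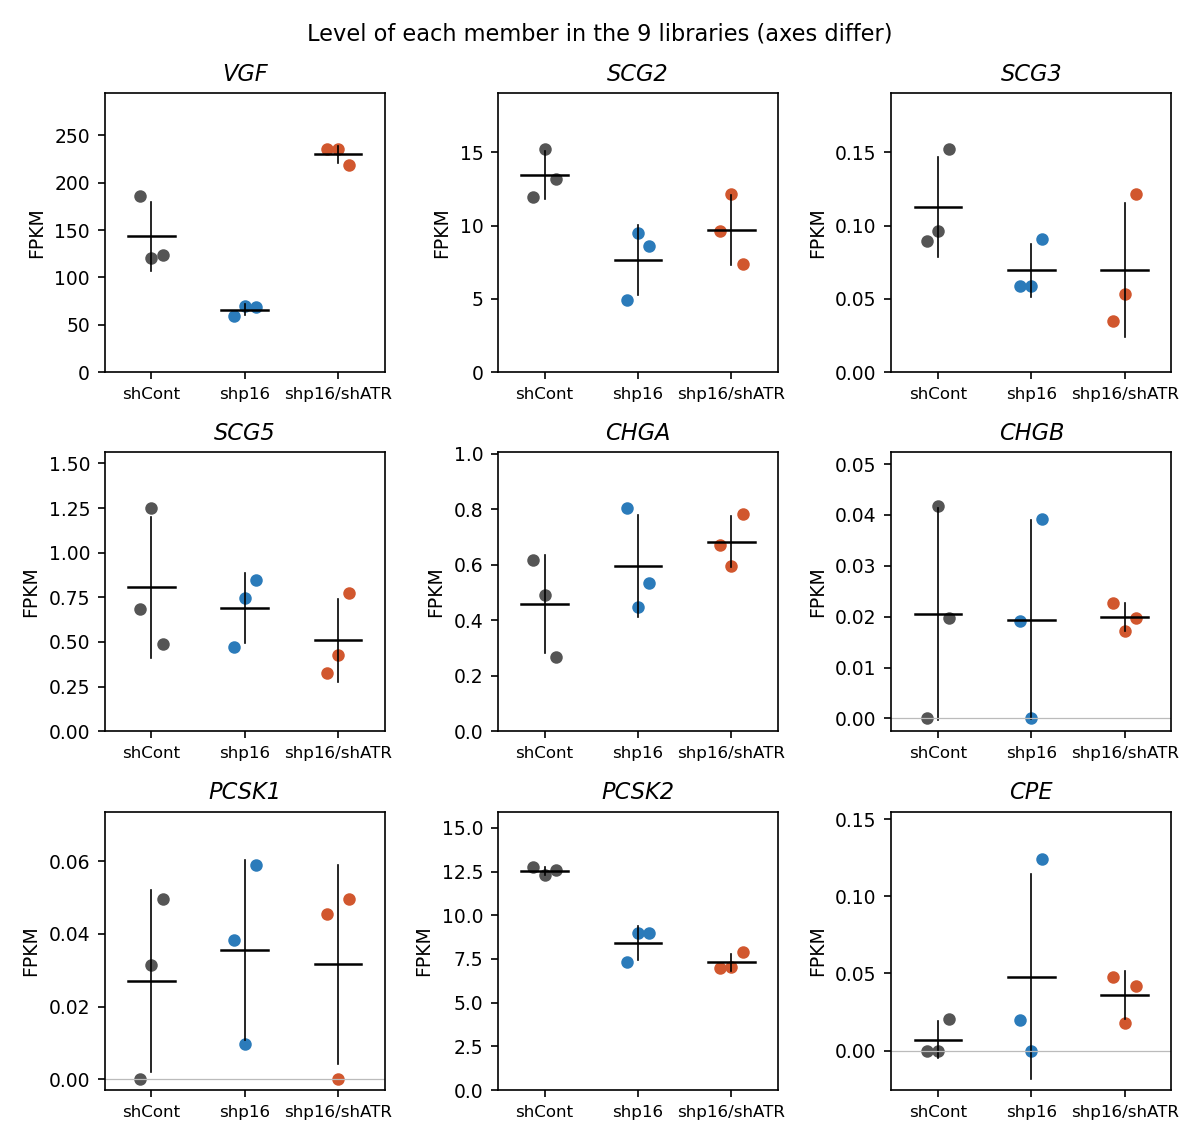
Level of each member (FPKM, 1 panel per gene, axes differ) in the 3 libraries of shCont, shp16 and shp16/shATR cells, with points for libraries, horizontal lines for group means and vertical lines for ± 1 SD. VGF separated all 3 groups, SCG2 and PCSK2 were highest in shCont cells, and the other members overlapped or were close to 0.

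SCG2 (ENSG00000171951, chromosome 2, 224461658 to 224467221, minus strand, GRCh37), the precursor of the peptide secretoneurin, fell with p16 knockdown. It was at 32.2, 37.8 and 33.7 CPM in shCont and at 13.6, 23.8 and 21.5 CPM in shp16 libraries. In shp16/shATR libraries it was at 24.9, 30.8 and 19.3 CPM. All shp16 and all shp16/shATR libraries were below the lowest shCont library, while the knockdown groups overlapped each other.

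The log2 fold change of SCG2 was -0.81 for shp16 against shCont (SE 0.21, adjusted p = 0.0233). For shp16/shATR against shp16 it was 0.35 (SE 0.21, adjusted p = 0.394) and for shp16/shATR against shCont -0.47 (SE 0.21, adjusted p = 0.127), neither of which passed the test. The fall with p16 knockdown lost its call in 6 of 20 alternatives, among them limma at either pseudocount (adjusted p = 0.0506 and 0.0530). Without library shp16 1, the lowest, it was -0.61 (adjusted p = 0.0716), without shCont 2 it was -0.75 (adjusted p = 0.0685) and without shp16 3 it was -0.88 (adjusted p = 0.0531).

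PCSK2 (ENSG00000125851, chromosome 20, 17206752 to 17465223, plus strand, GRCh37), the convertase also called PC2, fell as well. It was at 63.0, 56.1 and 59.2 CPM in shCont, at 36.9, 41.4 and 41.6 CPM in shp16, and at 33.0, 33.0 and 38.0 CPM in shp16/shATR libraries. Every library of both knockdown groups was below every shCont library, and 1 shp16/shATR library lay within the range of shp16. The log2 fold change was -0.57 for shp16 against shCont (SE 0.11, adjusted p = 0.00448) and -0.78 for shp16/shATR against shCont (SE 0.11, adjusted p = 0.000405). For shp16/shATR against shp16 it was -0.21 (SE 0.11, adjusted p = 0.323). With shCont 1 and shp16 1 both left out, a fit added after the data were seen, this last difference was -0.27 and passed the test (adjusted p = 0.0121).

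In shp16/shATR cells VGF, which was picked for its rise, was higher than in shp16 cells. PCSK2 was below every shp16 library in all but 1 of the shp16/shATR libraries. This difference of PCSK2 did not pass the test in the fit of all 9 libraries. The ratio of VGF to PCSK2 in FPKM, which does not depend on how libraries are scaled, was 9.81 to 14.5 in shCont, 7.65 to 8.13 with shp16 alone and 27.8 to 33.7 in shp16/shATR libraries. Since VGF entered this ratio by its rise, it is given as a description only.

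SCG5, the chaperone of PCSK2, was near the limit of detection although PCSK2 itself was not. SCG5 (ENSG00000166922, chromosome 15, 32933877 to 32989299, plus strand, GRCh37) had 20, 29 and 12 counts in shCont, 12, 19 and 21 in shp16 and 7, 12 and 19 in shp16/shATR libraries. The groups overlapped in each comparison. Its log2 fold change was -0.21 for shp16 over shCont (SE 0.43, adjusted p = 0.787), -0.42 on addition of shATR (SE 0.46, adjusted p = 0.676) and -0.64 for the double knockdown over shCont (SE 0.45, adjusted p = 0.343), none of which passed the test. A gene that overlaps it, RP11-1000B6.2, had 33 counts over all libraries, and the reads of overlapping genes may not be told apart.

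CHGA (ENSG00000100604, chromosome 14, 93389425 to 93401638, plus strand, GRCh37), chromogranin A, the general marker of neuroendocrine cells, was as low. It had 30, 19 and 11 counts in shCont, 34, 19 and 22 in shp16 and 24, 28 and 32 in shp16/shATR libraries. All groups overlapped. Its log2 fold changes in the same order were 0.37, 0.18 and 0.56 (SE 0.38, 0.37 and 0.38, adjusted p = 0.558, 0.844 and 0.326). CHGA holds the full CRE in its promoter window like VGF, but at this depth no difference was detectable for it.

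The remaining members had too few counts to be tested. SCG3, a granin that binds cholesterol-rich vesicle membrane, had 2 to 10 counts per library and 51 in all. PCSK1, the convertase also called PC1/3 and the third gene with a CRE, had 0 to 6 counts and 28 in all. CPE had 0 to 6 counts, with 13 in all, and CHGB, chromogranin B, 0 to 2 counts, with 9 in all. The higher counts of SCG3 in shCont (7, 6 and 10) than in shp16 libraries (4, 4 and 6) are too few for a statement on direction. The cells thus had mRNA for PCSK2 but hardly any for PCSK1, for CPE or for the chaperone of PCSK2.

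Of the 8 members other than VGF, 4 were tested and 2 of them, SCG2 and PCSK2, were called lower in shp16 than in shCont cells, while 7.59% of all genes tested were called lower and 7.23% higher. None of the 4 was called in shp16/shATR against shp16, where 2.73% of all genes were called higher and 3.49% lower. None of these 4 had an unadjusted p under 0.05 there either (the smallest was 0.0817, for PCSK2), and DESeq2 and limma also called 0. In shp16/shATR against shCont, PCSK2 was called lower, against a background of 12.7% lower and 10.9% higher. Groups that did not overlap were common among all genes tested, at 33.6%, 37.7% and 41.5% in the 3 comparisons in this order. The separation of VGF, SCG2 and PCSK2 by library is to be read against these shares, and VGF was moreover picked for its rise. All 3 comparisons share libraries pairwise and are not independent of each other.

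**Figure D2:**
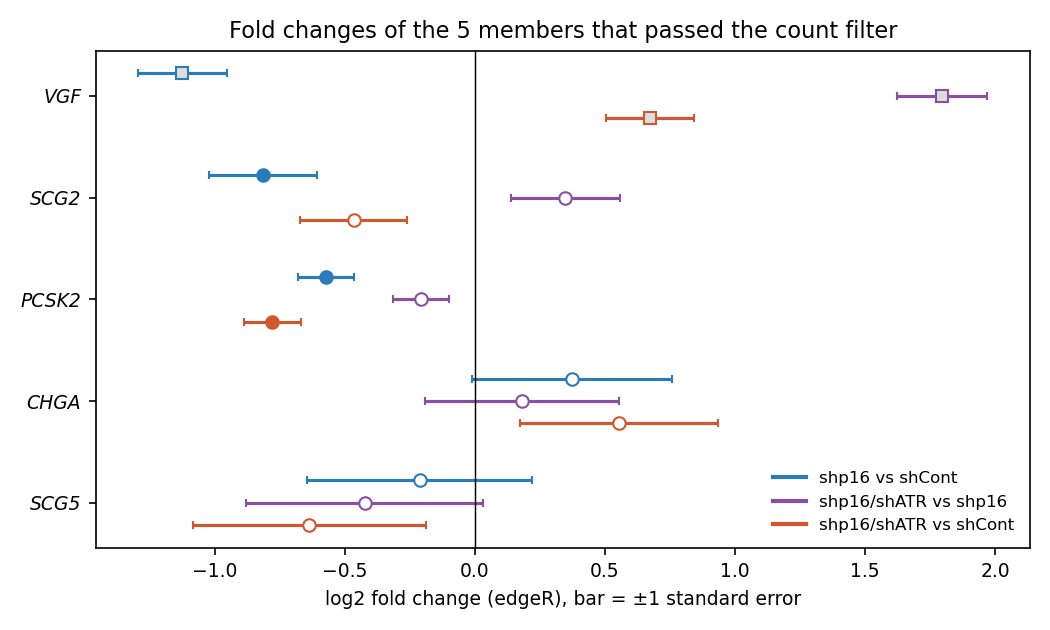
Log2 fold change (horizontal axis, edgeR, bars ± 1 SE) of the 5 members that passed the count filter in the 3 comparisons, with filled circles for an adjusted p under 0.05, open circles for the others, and grey squares for VGF, which was not tested. VGF was at -1.12, 1.80 and 0.67, whereas PCSK2 was below 0 in all 3 comparisons and SCG2 was lower in shp16 than in shCont cells.

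Markers of other cells moved with the p16 knockdown and are given beside the falls of SCG2 and PCSK2. The basal keratins KRT5 and KRT14 had 0 and 0 to 3 counts per library in shCont, 39 to 63 and 43 to 57 in shp16, and 7 to 39 and 22 to 53 in shp16/shATR cells, and both were called higher in shp16 and in shp16/shATR than in shCont cells, as was COL1A2 in the latter. None of the 4 markers tested was called in shp16/shATR against shp16 (smallest unadjusted p = 0.168 by edgeR, for KRT5). The summed level of the 8 markers of other cells found in the table was 0.257 to 1.24 CPM in shCont, 5.93 to 6.92 in shp16 and 2.77 to 7.09 in shp16/shATR cells, and PTPRC and CD3E, which mark blood cells, were at 0 throughout. Among the melanocyte markers, TYRP1 and S100B were lower in shp16 than in shCont cells (-0.43 and -0.68). TYRP1 was lower again in shp16/shATR than in shp16 cells (-0.88), and S100B was higher (0.67). The part of these markers in the results for VGF, SCG2 and PCSK2 was not tested. Fewer cells with a transcript and less transcript per cell cannot be told apart in such bulk libraries.

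The wider set of enzymes and inhibitors of peptide processing held called genes in both directions with p16 knockdown. Of 27 listed genes 24 were tested, and 3 rose and 7 fell in shp16 against shCont, where 7.23% of all genes tested were called higher and 7.59% lower, and the list's median log2 fold change was -0.29. The counts of all lists below are to be read against the shares of all genes given above for each comparison, and nothing particular to a list is drawn from them. The largest change was that of PCSK6, also called PACE4, a convertase of the secretory pathway, from 2.16, 3.54 and 4.05 CPM in shCont to 0.416, 0.0948 and 0.585 CPM in shp16 libraries (log2 fold change -3.14, SE 0.45, adjusted p = 0.000796). PAM, which amidates the ends of many peptide hormones, fell by 0.96 on the log2 scale (SE 0.14, adjusted p = 0.00115) and stayed low in shp16/shATR cells (-0.98 against shCont, adjusted p = 0.000605). PCSK1N, which encodes the granin-like inhibitor proSAAS of PCSK1, fell by 1.77 (SE 0.43, adjusted p = 0.0190), but it was at only 0.467 to 4.86 CPM and its change was -1.49 (adjusted p = 0.0755) without shp16 1, -1.79 (adjusted p = 0.0601) without shp16 3 and -0.88 (adjusted p = 0.0615) without both shCont 1 and shp16 1.

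FURIN, the convertase of the Golgi that cuts many growth factor precursors, was lower in the cells with shATR. It was at 277, 251 and 247 CPM in shCont and at 286, 283 and 278 CPM in shp16, but at 155, 149 and 162 CPM in shp16/shATR libraries. The log2 fold change was -0.86 for shp16/shATR against shp16 (SE 0.10, adjusted p = 0.000871). ECE1, which makes active endothelin from its precursor, was the only other of the 24 that was called in this comparison (-0.59, SE 0.09, adjusted p = 0.00453). None was called higher, and the median of the 24 was 0.0093.

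Compared with shCont cells, shp16/shATR cells had 4 processing genes higher and 6 lower (median -0.15). PCSK6 was lower (-2.73, SE 0.43, adjusted p = 0.000933). The carboxypeptidase gene CPM, which is not to be confused with the unit, was higher (1.10, SE 0.10, adjusted p = 2.61e-05), as was SERPINA3, a protease inhibitor (1.03, SE 0.24, adjusted p = 0.00983). By level, the cells had other enzymes with related activities: in shCont, QPCT, which forms the pyroglutamate end of peptides, was at 358 ± 14.1 FPKM, FURIN at 61.0 ± 2.01, the carboxypeptidase CPD at 11.3 ± 4.26 and the convertase PCSK7 at 4.91 ± 0.654 (SD, n = 3). These compare with 12.5 ± 0.237 FPKM for PCSK2.

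Most other peptide precursors were low or not detected. Of 47 listed precursors of hormones and neuropeptides, 13 had no count in any library, 8 reached 1 FPKM in at least 1 library, and 11 were tested. UCN2, the precursor of urocortin 2, was the one at a level like that of VGF, with 200 ± 34.4 FPKM in shCont, 129 ± 20.1 with shp16 alone and 182 ± 12.9 in shp16/shATR cells. Its order of the groups was that of VGF only in part: it fell with p16 knockdown (-0.63, SE 0.15, adjusted p = 0.0148) and was at 278, 277 and 252 CPM in shp16/shATR against 168, 196 and 209 CPM in shp16 libraries, without passing the test there. The fall of UCN2 was -0.55 (adjusted p = 0.0592) without shp16 1.

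Of the 11 precursors tested, 3 rose and 3 fell in shp16 against shCont (median -0.39), and only NPPC was called in shp16/shATR against shp16 (median 0.30). NPPC, which encodes C-type natriuretic peptide, was at 16.7, 11.7 and 11.3 CPM in shCont, 26.6, 31.9 and 33.6 in shp16, and 65.1, 64.9 and 64.0 in shp16/shATR libraries. It rose at both steps, by 1.21 (SE 0.16, adjusted p = 0.000388) and then by 1.07 (SE 0.15, adjusted p = 0.00233) on the log2 scale. NPPC was thus higher in shp16/shATR than in shp16 cells, as VGF was, but higher in shp16 than in shCont cells, where VGF was lower. In shp16/shATR against shCont, 4 precursors were higher and 2 lower (median 0.54). Among these STC2, encoding stanniocalcin 2 (2.04, SE 0.47, adjusted p = 0.00839), and ADM2, encoding intermedin (1.70, SE 0.22, adjusted p = 0.000242), had already risen with shp16 (2.58 and 1.56, adjusted p = 0.00309 and 0.000725), and ADM, encoding adrenomedullin, was lower (-0.73, SE 0.12, adjusted p = 0.00129). STC2 was at only 0.265 to 4.09 CPM. Its call in shp16/shATR against shCont was lost with limma on log2(FPKM + 1) (0.35, adjusted p = 0.0755).

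Genes of dense core vesicle formation and release went in both directions. Of 40 listed genes 25 were tested. In shp16 against shCont 2 rose and 5 fell (median -0.027), among them ICA1, a BAR domain protein of vesicle budding (-1.69, SE 0.34, adjusted p = 0.00713), STX1A, a syntaxin of the plasma membrane (-1.21, SE 0.23, adjusted p = 0.00476), and SYP, a vesicle membrane protein (-0.92, SE 0.25, adjusted p = 0.0301), whereas the small GTPase RAB3D rose (1.36, SE 0.18, adjusted p = 0.000453). SYP also stands in the neuroendocrine marker list, and its change was -0.68 (adjusted p = 0.0831) without shp16 1, -0.96 (adjusted p = 0.0553) without shCont 2 and -0.92 (adjusted p = 0.0861) without shp16 2.

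When shATR was added, 2 vesicle genes rose and 2 fell (median 0.059). UNC13B, which primes vesicles for fusion, was at 143, 118 and 125 CPM in shp16 and at 49.7, 50.5 and 48.4 CPM in shp16/shATR libraries (log2 fold change -1.38, SE 0.14, adjusted p = 0.000458). The related priming factors CADPS and CADPS2 moved in opposite directions. CADPS2 fell (-1.09, SE 0.17, adjusted p = 0.00394), and CADPS rose (0.70, SE 0.13, adjusted p = 0.00876), the latter with an adjusted p of 0.0576 without shp16/shATR a and of 0.0504 without shp16 2. SYT11, a synaptotagmin that does not bind calcium, rose (0.82, SE 0.11, adjusted p = 0.00141). Against shCont, 4 vesicle genes were higher and 5 lower in shp16/shATR cells (median -0.068), with ICA1 at -1.58, CADPS2 at -1.16, RAB3D at 0.92 and SYT11 at 0.90.

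**Figure D3:**
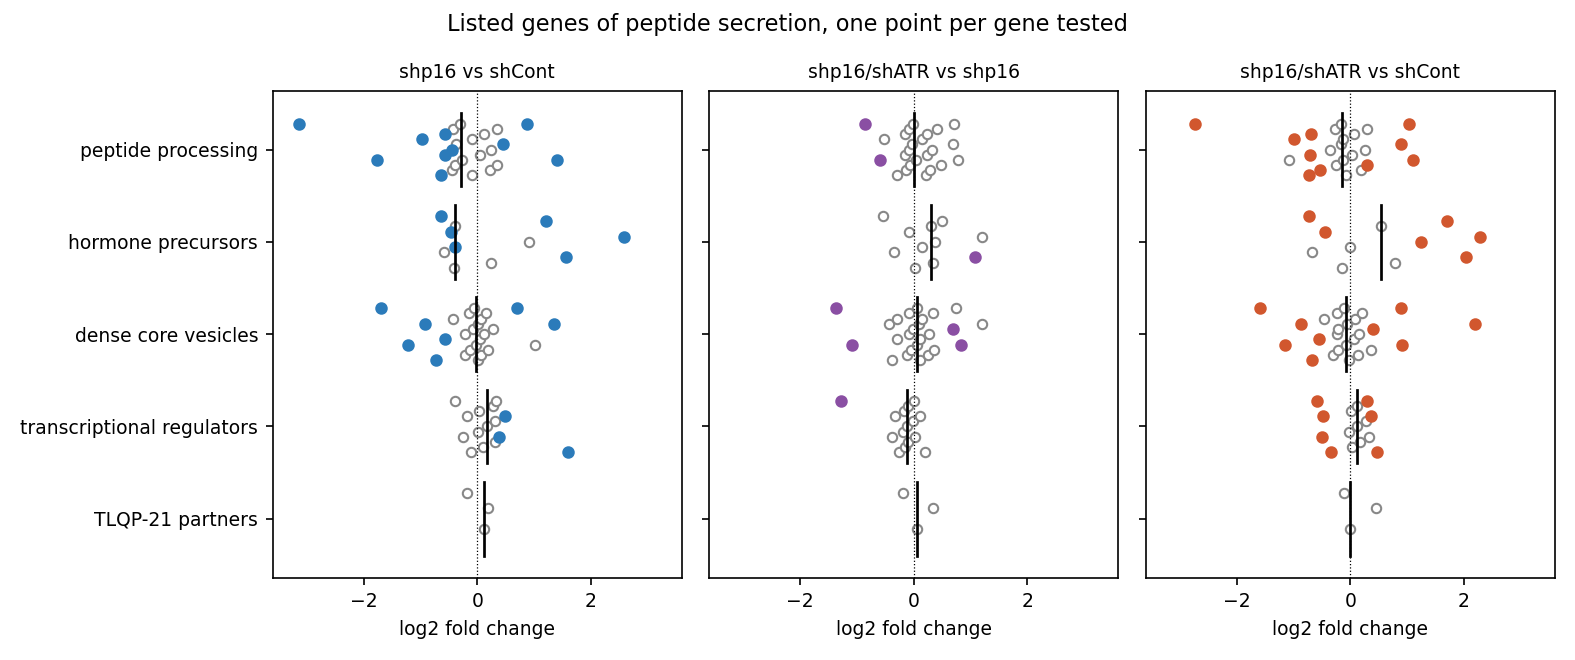
Log2 fold change (horizontal axes, edgeR) of the listed genes tested in the 3 comparisons, 1 point per gene, filled where the adjusted p was under 0.05, with a vertical bar at each list's median. Called genes of peptide processing lay on both sides of 0 in the comparisons with shCont, and in shp16/shATR against shp16 FURIN and ECE1, both below 0, were the only called genes of that list.

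Among 19 listed regulators of granin genes, namely CREB family factors with their coactivators, the repressor REST with its partners, EGR1 and neuroendocrine factors such as INSM1, 15 were tested. EGR1, an immediate early zinc finger factor, had the largest change. It was at 51.6, 51.7 and 52.0 CPM in shCont, at 162, 153 and 153 CPM in shp16, and at 63.2, 62.7 and 65.9 CPM in shp16/shATR libraries. Its order of the groups was thus opposite to that of VGF in the steps with shp16 and with shATR, with log2 fold changes of 1.59 (SE 0.09, adjusted p = 1.15e-06) and -1.29 (SE 0.09, adjusted p = 6.22e-05). EGR1 was the only regulator called in shp16/shATR against shp16 (0 higher and 1 lower, median -0.13).

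In shp16 against shCont 3 regulators rose and none fell (median 0.16), the others being SIN3A and HDAC1, partners of the REST repressor, at 0.49 and 0.38 (adjusted p = 0.0320 and 0.0265). SIN3A lost its call without any 1 of shCont 2, the shp16 libraries or the shp16/shATR libraries (adjusted p 0.0533 to 0.116), and HDAC1 without any 1 of shCont 2 and 3, shp16 2 and 3 or the shp16/shATR libraries (adjusted p 0.0507 to 0.103). Compared with shCont, shp16/shATR cells had 3 regulators higher and 4 lower (median 0.11), among the latter the CREB coactivators CRTC2 (-0.58, SE 0.15, adjusted p = 0.0155) and CRTC1 (-0.49, SE 0.13, adjusted p = 0.0212) and the deacetylase HDAC2 (-0.49, SE 0.11, adjusted p = 0.00896), with SIN3A higher (0.48, SE 0.14, adjusted p = 0.0255). The call of CRTC1 was lost on leaving out any 1 of the shp16/shATR libraries (adjusted p 0.0609 to 0.0846), and that of CRTC2 without library c (adjusted p = 0.0789). Leaving out shp16/shATR a or b ended the call of HDAC2 (adjusted p = 0.0543 and 0.0553), and leaving out any of these libraries ended that of SIN3A (adjusted p 0.0555 to 0.104). REST itself, the repressor that keeps neuronal genes silent in other cells, was at 28.5 to 48.3 CPM in shCont and 37.7 to 45.0 CPM in the other groups and was not called.

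The 3 genes whose products bind the VGF peptide TLQP-21 were not called in any comparison (medians 0.12, 0.060 and 0.0024). C3AR1, its receptor, was at 1.90 to 4.30 CPM over all libraries, and C1QBP and HSPA8, which are abundant proteins with other main roles, were at 194 to 298 and 1451 to 1897 CPM. The cells thus had transcripts of the secreted precursor together with low levels of the receptor transcript.

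The genes most like VGF were sought over the 9 libraries by the root mean square difference of log2 CPM after each gene's own mean was subtracted. Among 13434 genes ranked, FCER1G, an immune receptor chain (0.20), LAMB3, a laminin chain (0.21), MT2A, a metallothionein with close paralogs between which reads may be split (0.25), ABCA3, a lipid transporter (0.27), and ITGA3, an integrin chain (0.31), were nearest. LAMB3 was at 7.29, 6.37 and 6.99 CPM in shCont, 2.75, 2.99 and 3.12 in shp16, and 10.7, 9.61 and 8.10 in shp16/shATR libraries. MT2A was at 201, 113 and 115 CPM, then 94.4, 92.3 and 92.9, then 250, 215 and 224 CPM in the same order. That these genes had the group order of VGF follows from how they were picked. Of the other members 3 had a mean level high enough to be ranked, with SCG2 at rank 2462 (0.71), CHGA at 5900 (0.79) and PCSK2 at 9009 (0.87).

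**Figure D4:**
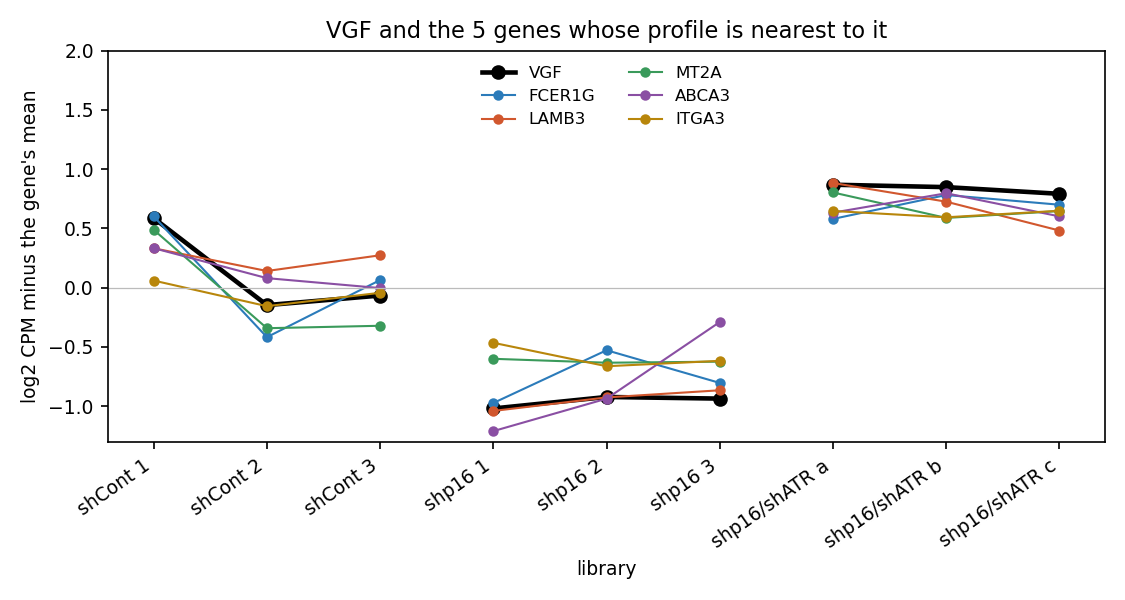
Log2 CPM minus each gene's mean (vertical axis) of VGF and the 5 genes nearest to it in the 9 libraries (horizontal axis, lines join libraries of 1 group only for legibility). All 6 genes were below their mean in the shp16 libraries and above it in the shp16/shATR libraries, and shCont 1 was above shCont 2 for each.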

How the data were processed

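Libraries were prepared from total RNA with the NEBNext Ultra kit for Illumina and sequenced at Novogene, which also processed the reads. The submitters' processing notes name STAR 2.6.1 and DESeq2 2 and the build GRCh38, whereas the gene coordinates in the deposited tables are those of GRCh37. The counting program and its strand setting are not given in the sources used here. The tables deposited by the authors hold raw counts (48162 genes, not normalized) and FPKM values that equalled each count scaled by gene length and library total within a relative difference of 4.22e-07. The 3 count columns of shp16/shATR share 1 name and were called a, b and c, and by their values they matched FPKM replicates 1, 2 and 3.

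The counts were scaled to CPM by TMM, filtered by filterByExpr and tested with edgeR 4.0.16 (quasi-likelihood, R 4.3.3) over all 9 libraries with 1 coefficient per group, with Benjamini-Hochberg adjustment over 15776 genes and a threshold of 0.05. The SE is the log2 fold change divided by the square root of F. The steps were tested on simulated data. Alternatives were DESeq2 1.42.0, limma 3.58.1 on log2(FPKM + 1) and log2(FPKM + 0.1), other size factors and filters, 2 groups only, a replicate block, leaving out each library, and, chosen after seeing the data, leaving out both libraries that stand apart. These had chi-square values of 68.5 and 83.4 per gene (shCont 1) and 37.9 and 37.2 (shp16 1) against the others of their group, where other pairs were at 1.94 to 9.66, all above counting noise, so no library was treated as a copy of another.

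The members and gene lists were chosen with earlier results of these data known. Named genes are the members, CDKN2A and ATR, up to 4 called genes per list and comparison with a mean CPM of at least 1 and the largest changes, the 5 genes nearest to VGF, and markers at 0. REST, QPCT, CPD, PCSK7 and the other markers were named after their values were seen. CTSL, EIPR1 and CCDC186 were matched by Ensembl identifier, and PECAM1 found no match. Promoter windows came from RefSeq. A few genes that the rule would name are not reported here.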

Additional observations from a re-analysis of the deposited data

How the results depend on the processing

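The counts of called genes and the value of VGF in shp16/shATR over shp16, 7 results in all, gave 136 values under the alternatives. Of these, 116 were equal or within 1.5 times (for VGF, within the spread between libraries) and 20 moved. The 20 values of VGF were all among the 116, and those that moved were all counts of called genes. Since VGF was picked by its rise, its 20 values are a description and no support for that rise. The 68 single-gene results, which include VGF in the other 2 comparisons, gave 1298 values. Of these, 1211 stayed the same, 71 lost and 8 gained the call, 4 moved and 4 reversed. The 4 that moved were those of VGF, judged by the spread between libraries and not by a call. Of the 8 members other than VGF, 2 were called in shp16 against shCont, 1 with limma at either pseudocount and 1 to 2 on leaving out each library in turn. In shp16/shATR against shp16, 0 were called, and 1 without both shCont 1 and shp16 1. In shp16/shATR against shCont, 1 was called, and 2 with no filter on low counts (SCG2 then had an adjusted p of 0.0198, edgeR) or without both libraries that stand apart (0.00261). Of the listed genes of processing, precursors, vesicles, regulators and TLQP-21 partners, 26, 8 and 32 were called in these 3 comparisons. With only the 2 groups compared the counts were 15 and 23 in the first 2, DESeq2 called 13 in the second, and without both libraries that stand apart 41 and 30 were called there. Calls over all genes moved the same way, from 2339 and 981 to 1186 and 2878 with 2 groups only, to 5264 and 4304 without both libraries, and to 1508 with DESeq2 in the second. Leaving out each library gave 17 to 32, 7 to 26 and 20 to 36, with 17 without shp16 1, 26 without shCont 1 and 20 without shp16/shATR a or b. Reversed values were the changes of SCG5 in shp16 against shCont, 0.19 without shCont 2 (-0.47 to 0.19 on leaving out each library), of CHGA in shp16/shATR against shp16, -0.0096 without shp16 2 (-0.0096 to 0.51), and of ATR in shp16 against shCont, -0.12 without shCont 1 (-0.12 to 0.33) and -0.17 without both (then called lower, adjusted p = 0.0421, edgeR). The causes were not tested. CDKN2A passed the test in shp16 against shCont with DESeq2 (0.0418), with no filter (0.0145) and without shCont 3 (0.0300).

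Replicate numbers are shared between groups. Correlations of deviations from the group mean ran from -0.30 to 0.29 between libraries of the same number. Between libraries of different numbers they ran from -0.37 to 0.43. With 3 libraries per group this check cannot decide whether the numbers pair the libraries. With the replicate block on the counts, 0 members and 9 listed genes were called in shp16 against shCont, with PCSK2 at -0.57 (adjusted p = 0.0944, edgeR) and SCG2 at -0.85 (0.0686). In the same comparison limma with the block kept the calls of SCG2 and PCSK2 and called 15 listed genes. For shp16/shATR the block could be run on FPKM only, since the names of the count columns carry no numbers and libraries were not numbered by their values. Counts limit SCG3, SCG5, CHGA, CHGB, PCSK1 and CPE, for which a difference between groups was not detectable at this depth.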

Other observations

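Some neighbours of VGF on chromosome 7 were examined after its values were seen. AP1S1, an adaptor subunit of clathrin coats, lies 0.9 kb from VGF and was not called in any comparison (log2 fold changes -0.34 for shp16 over shCont, 0.11 on addition of shATR and -0.23 for the double knockdown over shCont, adjusted p = 0.120, 0.721 and 0.258, edgeR). NAT16, 4.9 kb away on the other side, had changes of -1.19, 1.68 and 0.48 (adjusted p = 0.146, 0.0724 and 0.464), and with 1 library left out (shCont 1) the second of these passed the test at 1.68 (adjusted p = 0.0402). RP11-395B7.7, PLOD3 and ZNHIT1, at 64.5, 40.4 and 52.1 kb, were not called.

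The 5 genes nearest to VGF were compared under other scalings, chosen after seeing the data. With library size only, the first 5 were the same. With log2(FPKM + 1), 3 of the 5 were among the first 5, and with log2(FPKM + 0.1), without shCont 1 or without shp16 1, 4 were. FCER1G, MT2A and ITGA3 were among the first 5 under each of these.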
